A study of Mus musculus with 9 samples.

Results

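Secreted Wnt antagonists are the subject here: the secreted frizzled-related proteins Sfrp1, Sfrp2, Sfrp4, Sfrp5 and Frzb, the Dickkopf proteins Dkk1, Dkk2, Dkk3 and Dkk4, and Wnt inhibitory factor Wif1. These 10 genes were taken by symbol from a table of 19938 genes measured in mouse embryonic stem cells on an Affymetrix whole-transcript array. The design had 9 arrays in 3 groups, each with 3 replicates labelled biological. All cells had a mixed S129S6-C57BL/6 background and grew on gelatin in serum with leukaemia inhibitory factor (LIF). The flox group, the controls, had lost 1 allele of the β-catenin gene and kept the other as a floxed allele, so no group was wild type. The null group lacked both alleles. The null Eα group lacked both alleles as well and stably expressed a fusion of E-cadherin with α-catenin, whose promoter the labels do not name. Nor do the labels say whether a group was 1 clone or several, so a difference between groups is one between genotype and line together, and the p-values measure only the spread between these cultures.

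Wnt ligands bind Frizzled receptors and the coreceptors Lrp5 and Lrp6 at the cell surface, and this stabilises β-catenin, which enters the nucleus and switches on genes with TCF/LEF factors. Secreted antagonists act upstream of that step. Sfrp proteins and Frzb carry a cysteine-rich domain like that of Frizzled and bind Wnt ligands, as Wif1 does with a different domain, while Dkk1, Dkk2 and Dkk4 bind Lrp5 and Lrp6, with Kremen proteins as further receptors. In stem cells kept with LIF, Wnt signalling favours self-renewal, and in the early embryo Dkk1 and Sfrp5 are known from the anterior visceral endoderm.

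Values are log2 RMA signals, where 1 unit is a 2-fold change in signal. Array medians ranged from 5.95 to 6.06, and Pearson correlations across features were 0.986 to 0.997 within groups and 0.935 to 0.980 between groups. Ctnnb1, the deleted gene, fell by 0.65 ± 0.07 (limma standard error) in null and by 0.93 ± 0.07 in null Eα cells, in a transcript cluster that need not lie in the deleted exons. The table gave no detection calls. Olfactory and vomeronasal receptor genes, which serve sensory neurons, therefore stood in for background, and the 95th percentile of their 1194 values on an array is called the floor here. It lay at 4.96 to 5.07 on the flox, 5.19 to 5.25 on the null and 5.31 to 5.43 on the null Eα arrays. The median of the receptor genes was itself higher than in flox cells by 0.12 in null and by 0.22 in null Eα cells.

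By that measure 6 of the 10 antagonists exceeded the floor on all 9 arrays and 4 on some of them. Sfrp1 and Sfrp2 lay far above it everywhere. Dkk1, Dkk4, Sfrp5 and Wif1 stayed close to it in every group, and Frzb passed it on 1 array. Each gene had a single transcript cluster, and none failed to match. Since the signal comes from whole cultures, fewer cells of a type and less RNA per cell cannot be told apart.

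**Figure D1:**
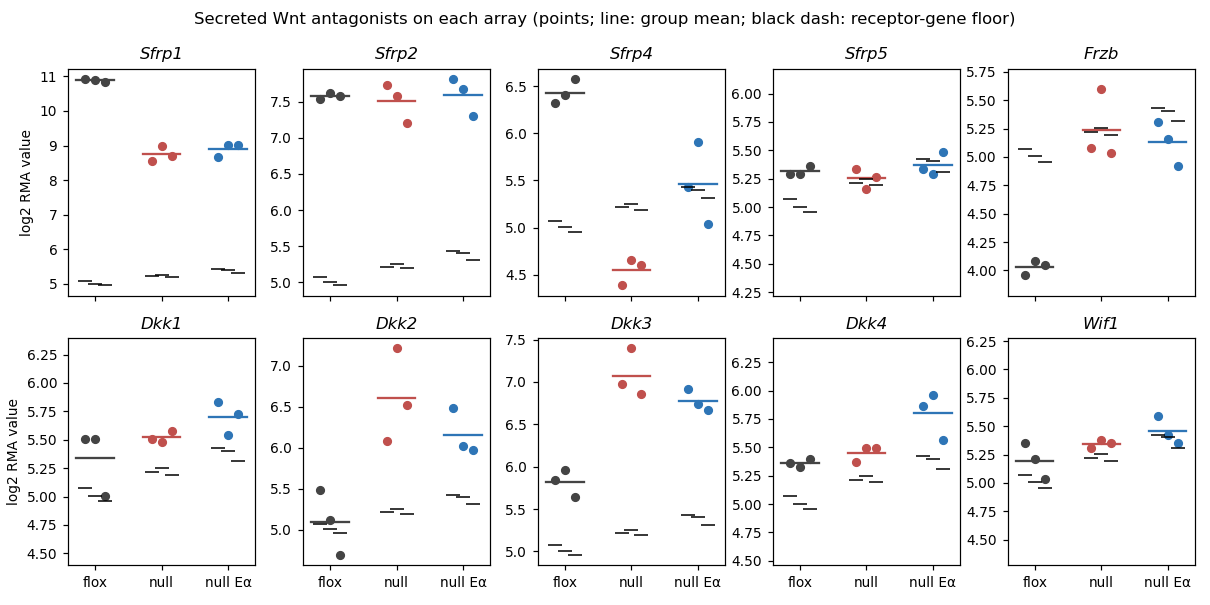
Log2 RMA values (y axis, separate scale in each panel) of the 10 antagonists on the 9 arrays, by group (x axis). Points are arrays, coloured lines are group means and black dashes mark the receptor-gene floor of each array; Sfrp1 and Sfrp4 sit highest in flox cells, Frzb, Dkk2 and Dkk3 lowest.

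The deletion of the second β-catenin allele went with opposite changes inside this gene set. In null against flox cells Sfrp1 and Sfrp4 fell, and Dkk2, Dkk3 and Frzb rose, each more than 2-fold on the RMA values, while Sfrp2, Sfrp5, Dkk1, Dkk4 and Wif1 were not called. A call is a Benjamini-Hochberg adjusted p under 0.05 over all 19938 genes in limma. With 5 of 10 members called, the set lay near the background, since 55.2% of all genes were called in this comparison, 26.5% higher and 28.7% lower. Calls of at least 2-fold on the RMA values were rarer, at 5.03% of genes for rises and 10.2% for falls. By that measure 3 members rose and 2 fell so far. Of these, Frzb lay under the floor on every flox array, and its null mean was 1.17-fold above the flox floor. The floor of the null arrays was itself higher than that of the flox arrays. The groups of 5 members did not overlap, against 67.4% of all genes. The median difference of all 10 members was 0.12, against 0.06 over all genes.

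Among the antagonists that bind Wnt ligands, Sfrp1 carried the largest difference. Sfrp1 (transcript cluster 10570957, chromosome 8) read 10.93, 10.90 and 10.83 on the flox arrays, 8.56, 8.98 and 8.69 on the null arrays and 8.67, 9.003 and 9.003 on the null Eα arrays. Every flox array stood far above all arrays without β-catenin, and the null and null Eα arrays overlapped. It fell by 2.14 ± 0.12 in null cells (limma adjusted p = 2.18e-07, n = 3 against 3), a 4.42-fold fall to 22.6% of control. The null Eα difference was -2.00 ± 0.12 (adjusted p = 5.29e-07), or 3.99-fold. Between null Eα and null cells it differed by 0.14 (95% confidence interval -0.13 to 0.42, adjusted p = 0.394). Among all genes it was the 383rd lowest difference in null and the 198th lowest in null Eα cells. Brighter genes (those above the median level) on chromosome 8 had median differences of -0.39 in null and -0.38 in null Eα cells relative to those of all chromosomes, and with chromosomes centred relative to all the differences of Sfrp1 were -1.76 and -1.61. With each chromosome centred on its own median the difference in null Eα cells was -1.32.

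Sfrp4 (transcript cluster 10403834, chromosome 13) was the member whose level changed most between the lines without β-catenin. Its values were 6.32, 6.40 and 6.58 in flox cells, 4.39, 4.65 and 4.61 in null cells and 5.43, 5.91 and 5.04 in null Eα cells. The 3 groups did not overlap: flox was highest, null lowest and null Eα between, and all null arrays lay under the floor. The fall was -1.88 ± 0.18 in null (limma adjusted p = 9.92e-06) and -0.97 ± 0.18 in null Eα cells (adjusted p = 0.00118). Set against the floor in place of the null values, the fall in null cells was at least 2.31-fold. Null Eα exceeded null by 0.91 ± 0.18 (adjusted p = 0.00423), or by 1.18-fold with the null floor in place of the null values. The null Eα mean (5.46) lay close to the mean null Eα floor (5.38), which was above the mean null floor (5.22). So 1.18-fold is no lower bound on a rise over background, and 2 of 3 null Eα arrays passed their floor.

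Frzb, the third relative of the Frizzled receptors to be called, went the other way at very low signal. Its flox arrays (transcript cluster 10484307, chromosome 2) read 3.96, 4.08 and 4.04, the null arrays 5.08, 5.60 and 5.03 and the null Eα arrays 5.31, 5.16 and 4.92. Flox was lowest without overlap, and the lines without β-catenin overlapped. The rises were 1.21 ± 0.15 in null (limma adjusted p = 5.71e-05) and 1.10 ± 0.15 in null Eα cells (adjusted p = 1.27e-04). Only null replicate 2 passed its floor, and the floors of both lines were themselves above that of the flox arrays. With the flox floor in place of the flox values, the rise of Frzb in null cells was 1.17-fold. Its null mean (5.24) lay close to the mean null floor (5.22), and the mean flox floor was 5.01. So 1.17-fold is no lower bound on a rise over background. No fold is given for Frzb in null Eα cells, where no array passed its floor.

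The remaining binders of Wnt ligands were not called in null cells. Sfrp2 (transcript cluster 10492798) read 7.54, 7.63 and 7.57 in flox, 7.73, 7.57 and 7.20 in null and 7.81, 7.67 and 7.30 in null Eα cells. The groups overlapped, with differences from flox of -0.08 (95% confidence interval -0.41 to 0.26, limma adjusted p = 0.682) and 0.01 (-0.32 to 0.35, adjusted p = 0.939). This gene was well above the floor, so a fall as large as that of Sfrp1 lay outside both intervals. Sfrp5 ranged from 5.16 to 5.48 over all 9 arrays, at or near the floor, and differed from flox by -0.06 ± 0.08 and 0.06 ± 0.08 (adjusted p = 0.551 and 0.549).

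Wif1 (transcript cluster 10366653) read 5.35, 5.21 and 5.03 in flox, 5.31, 5.38 and 5.35 in null and 5.59, 5.42 and 5.35 in null Eα cells. Null and flox overlapped (0.15 ± 0.10, limma adjusted p = 0.209), a difference called with each chromosome centred on its own median (0.32). That centring takes the median of brighter genes off every gene of the chromosome, so a dim gene moves by it too. Null Eα differed from flox by 0.26 ± 0.10 (adjusted p = 0.0365), close to the shift of 0.22 in the receptor genes. That call was lost after quantile normalization (0.08) and median centring (0.18), when only the groups compared were fitted, with chromosomes centred relative to all (0.21), and without flox replicate 2 (0.27), flox replicate 3 (0.18), null Eα replicate 1 (0.19) or null Eα replicate 2 (0.28).

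**Figure D2:**
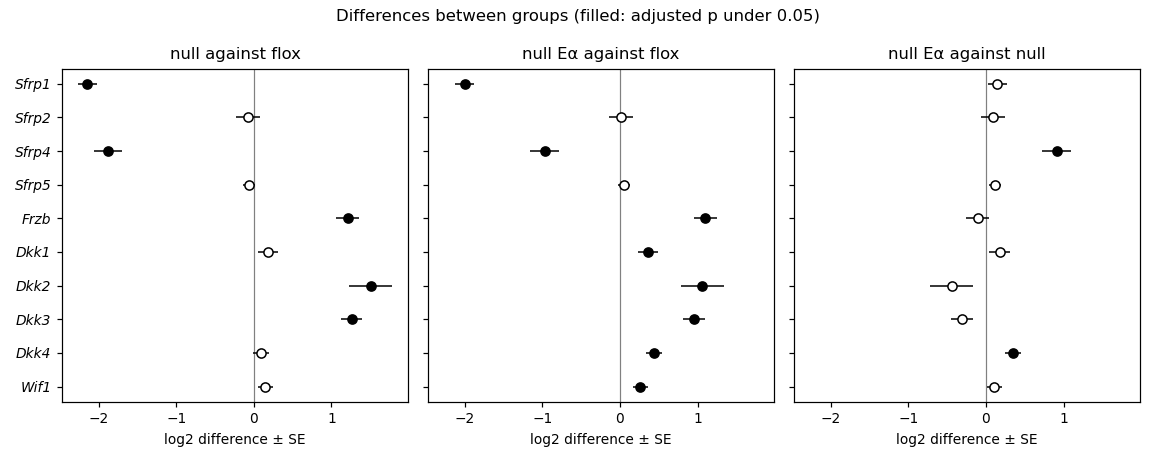
Log2 differences between group means (x axis) with limma standard errors for the 10 antagonists (y axis) in the 3 comparisons. Filled points were called at adjusted p under 0.05; Sfrp1 at -2.14 and Dkk2 at 1.51 mark the ends in null against flox cells.

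On the RMA values Dickkopf genes were called higher or not called in every comparison, and none was called lower. Dkk2 (transcript cluster 10496125, chromosome 3), which binds Lrp5 and Lrp6 and can inhibit or activate signalling, read 5.48, 5.12 and 4.70 in flox, 6.08, 7.21 and 6.52 in null and 6.48, 6.02 and 5.97 in null Eα cells. All arrays without β-catenin stood above the flox arrays, with a wide spread in null cells (SD 0.57). Its rise was 1.51 ± 0.28 in null (limma adjusted p = 9.80e-04) and 1.06 ± 0.28 in null Eα cells (adjusted p = 0.00748). Flox replicate 3 lay under the floor, and the other 2 flox arrays above it. Brighter genes of chromosome 3 stood 0.27 above all chromosomes in null cells, and centred on that basis the rise there was 1.24. Null Eα and null overlapped and differed by -0.44 (95% confidence interval -1.06 to 0.18, adjusted p = 0.248).

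Dkk3, the divergent member whose part in Wnt signalling is less settled, rose with less spread. Its arrays (transcript cluster 10567010, chromosome 7) read 5.84, 5.96 and 5.64 in flox, 6.97, 7.40 and 6.86 in null and 6.91, 6.73 and 6.67 in null Eα cells. Flox was lowest without overlap and the other groups overlapped. The rises were 1.26 ± 0.14 (limma adjusted p = 2.64e-05) and 0.96 ± 0.14 (adjusted p = 2.21e-04), and null Eα differed from null by -0.30 ± 0.14 (adjusted p = 0.127). This last difference was called with chromosomes centred relative to all (-0.38).

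Dkk1, the best-studied inhibitor of Lrp5 and Lrp6 and a known target gene of β-catenin, was dim in all groups. It read 5.51, 5.51 and 5.004 in flox, 5.51, 5.48 and 5.58 in null and 5.83, 5.54 and 5.73 in null Eα cells (transcript cluster 10467006, chromosome 19). Flox and null overlapped (0.18 ± 0.13, limma adjusted p = 0.269). With each chromosome centred on its own median, a shift taken from brighter genes, that difference was called (0.43). Null Eα lay above flox by 0.36 ± 0.13 (adjusted p = 0.0371), a call lost without flox replicate 3 (0.19), null replicate 1 (0.36), null Eα replicate 1 (0.30) or null Eα replicate 3 (0.35), after quantile normalization (0.20), after median centring (0.28) and with only the groups compared. Here too the receptor genes had shifted by 0.22.

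Dkk4, which binds Lrp5 and Lrp6 and lies on chromosome 8 like Sfrp1, had higher RMA values in null Eα cells than in both other groups. It read 5.36, 5.32 and 5.40 in flox, 5.37, 5.49 and 5.49 in null and 5.87, 5.97 and 5.56 in null Eα cells (transcript cluster 10570850). Only the null Eα arrays stood apart. They exceeded flox by 0.44 ± 0.10 (limma adjusted p = 0.00380), or by 0.29 after quantile normalization and by 0.82 with chromosomes centred relative to all. In null Eα cells the receptor genes had shifted by 0.22 against flox and by 0.10 against null cells. Dkk4 exceeded 97.2% to 98.3% of receptor genes on the flox arrays and 96.3% to 97.5% on the null arrays. On the null Eα arrays it exceeded 96.8% to 98.4%, so by that measure the groups overlapped. Over null cells Dkk4 gained 0.35 ± 0.10 (adjusted p = 0.0253). The call did not hold without null replicate 1 (0.31), null replicate 3 (0.37), null Eα replicate 1 (0.31) or null Eα replicate 2 (0.26), after quantile normalization (0.29) and with only the groups compared. Null against flox (0.09 ± 0.10, adjusted p = 0.466) was called under both ways of centring chromosomes (0.64 and 0.48). Both take the shift of brighter genes of chromosome 8 off every gene on it, so the dim Dkk4 is raised by the adjustment itself.

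Promoter sequences were at hand for 6 of the 10 antagonists, and not for Sfrp1, Sfrp4, Dkk3 and Dkk4. So neither member that fell in null cells was searched. The 6 are compared because TCF/LEF factors, the partners of β-catenin on DNA, recognise a short motif. It was searched as CTTTGAA or CTTTGAT or CTTTGTA or CTTTGTT on both strands in the 250 bases before the start site, where matches on opposite strands can overlap at their ends. Of all 32851 promoters of that length 14.8% held a match, and of the 6 antagonists only Dkk1 did, with 2 matches, at -117 to -111 and -98 to -92 from the start. The Dkk1 promoter is shown with that of Dkk2, the Dickkopf gene with the largest rise, both from RefSeq (GRCm38.p6), 5′ to 3′ on the strand of the gene, with the matches in capitals. Dkk1 lies on the minus strand at chr19:30549497-30549746 and Dkk2 on the plus strand at chr3:132085042-132085291.
Dkk1: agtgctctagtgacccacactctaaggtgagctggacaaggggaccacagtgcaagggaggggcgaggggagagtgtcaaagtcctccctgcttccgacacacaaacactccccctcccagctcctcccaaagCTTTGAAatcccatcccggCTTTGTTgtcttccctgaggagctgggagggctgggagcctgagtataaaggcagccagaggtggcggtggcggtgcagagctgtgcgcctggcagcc
Dkk2: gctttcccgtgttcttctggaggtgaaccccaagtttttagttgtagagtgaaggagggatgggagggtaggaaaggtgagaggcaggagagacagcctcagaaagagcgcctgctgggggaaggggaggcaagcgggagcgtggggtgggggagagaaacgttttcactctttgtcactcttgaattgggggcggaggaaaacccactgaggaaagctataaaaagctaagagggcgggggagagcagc
The letters of the motif are thus present before Dkk1, which was near the floor in all groups, and absent from this window of Dkk2, which rose. Both windows were poorer in CG dinucleotides, with 6 in Dkk1 and 7 in Dkk2, than those of Sfrp2 (16), Frzb (16), Sfrp5 (13) and Wif1 (21), against a median of 6 over all promoters. A match is a description of the letters and no evidence of binding.

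Null Eα cells were set against the same 3 flox arrays, so this comparison and the one above share their controls. In this comparison 8 of 10 members were called, 6 higher and 2 lower, where 63.7% of all genes were called, 32.1% higher and 31.6% lower. Groups of 8 members did not overlap, against 69.5% of all genes. After quantile normalization or median centring 4 members were called higher, without Dkk1 and Wif1. Only 3 of the 8 called members passed 2-fold on the RMA values. Dkk2 and Frzb did so among the rises, where 2.22% of genes rose so far. Sfrp1 did so among the falls, where 9.75% fell so far. All flox and null Eα arrays of Frzb lay under the floor. Among receptor genes 41.8% were called higher, so a small rise of a dim gene was frequent on these arrays.

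Null Eα against null cells shows what differed with the fusion among cells without β-catenin. Sfrp4 and Dkk4 were called higher and no member was called lower, 2 of 10 where 31.7% of all genes were called (13.6% higher and 18.1% lower). Neither rise reached 2-fold, as 1.7% of genes did upward and 3.13% downward. Groups of 2 members did not overlap, against 43.1% of all genes. Dkk2, Dkk3 and Frzb had differences of -0.44, -0.30 and -0.11 here, none of them called.

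Neighbouring genes differed between members. Of the 5 nearest measured genes on each side of Sfrp1, 5 were called higher and 1 lower in null cells, Gins4 (-1.33), and all 10 lay above Sfrp1. Over all genes 26.5% were called higher and 28.7% lower in this comparison. Around Dkk3 8 of 10 neighbours were called higher and 0 lower, with a median of 0.81, and around Dkk4, on chromosome 8 with its shift of -0.39, 8 of 10 were called lower with a median of -0.58. For Sfrp4 the neighbours gave 0 higher and 5 lower, with Stard3nl (-1.88) as low as Sfrp4 itself, for Dkk2 3 higher and 2 lower, and for Frzb 4 higher and 3 lower. So Sfrp1 and Dkk2 stood outside the range of their 10 neighbours, while Sfrp4, Frzb and Dkk3 lay within it. The neighbours and these counts were chosen after the members' values were seen.

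**Figure D3:**
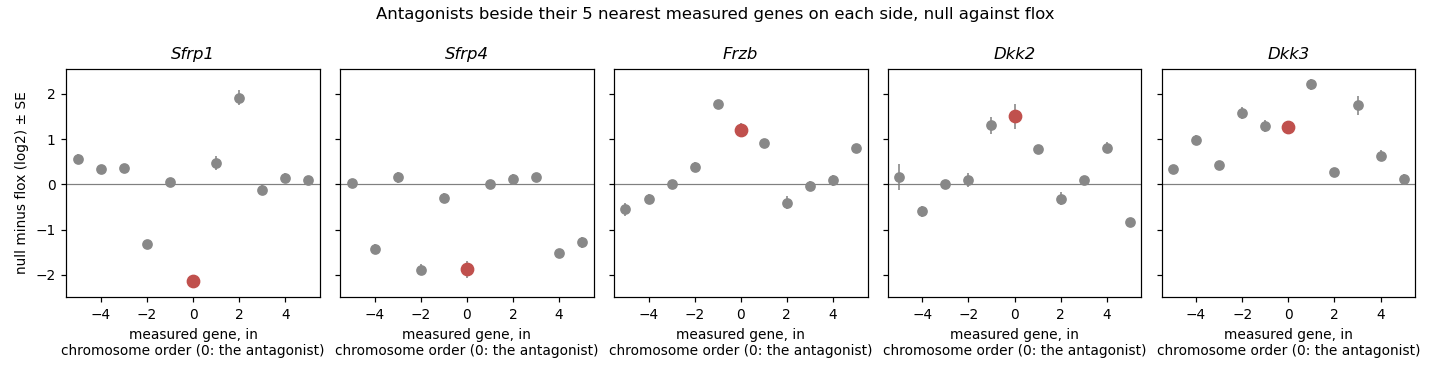
Null minus flox log2 differences (y axis, with limma standard errors) of 5 antagonists (red, position 0) and their 5 nearest measured genes on each side (grey) in chromosome order (x axis, gene rank). Sfrp1 lies below all 10 neighbours at -2.14, whereas all 10 neighbours of Dkk3 lie above 0.

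Some genes matched these patterns closely over the 9 arrays. Likeness was the root mean square difference of the log2 values after each gene's flox mean was subtracted, for the 5 members whose group means spanned at least 1 unit. Nearest to Sfrp1 were Ndrg2 (0.13), Cks2 (0.13) and Dhrs11 (0.14), and nearest to Sfrp4 were Tgm1 (0.12), Syce1 (0.15) and Irak3 (0.16). Il4ra, an interleukin receptor chain, was among the nearest to both Frzb (0.09) and Dkk3 (0.11). Sat1 (0.12) and Dkk3 itself (0.13) followed for Frzb, and Pla2r1 (0.08) and Tgfbr2, a TGF-β receptor (0.11), came before Il4ra for Dkk3. Dkk2 had looser matches in Gpr176 (0.19), Tfpi2 (0.20) and Avpr1a (0.20). Frzb itself was under the floor on 8 of 9 arrays. Of the genes named here, Syce1 in null cells and Gpr176, Avpr1a and Pla2r1 in flox cells were under it on every array of that group.

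**Figure D4:**
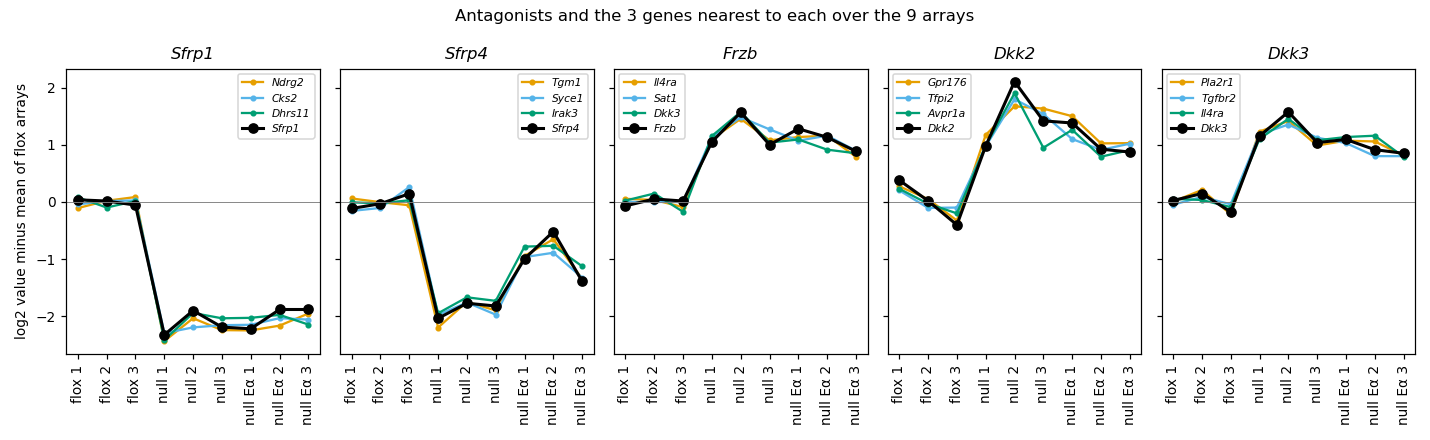
Log2 value minus the mean of the flox arrays (y axis) on each of the 9 arrays (x axis, group and replicate) for 5 antagonists (black) and the 3 genes nearest to each (colours). Lines only guide the eye; Sfrp1 stays near -2 on all arrays without β-catenin, whereas Sfrp4 is higher on the null Eα than on the null arrays.

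The receptors on which the antagonists act were called in both directions, as all genes were. Of 17 measured Frizzled genes, coreceptors and further Wnt receptors, 7 rose and 6 fell in null cells (median 0.03), where 26.5% of all genes rose and 28.7% fell. In null Eα against flox cells 4 rose and 6 fell (median -0.29), beside 32.1% and 31.6% of all genes. In null Eα against null cells 3 rose and 7 fell (median -0.33), beside 13.6% and 18.1% of all genes. Fzd1 and Fzd8 rose by 1.44 ± 0.09 and 1.42 ± 0.10 in null cells (limma adjusted p = 3.78e-07 and 6.41e-07) and by 0.86 ± 0.09 and 0.87 ± 0.10 in null Eα cells, and Fzd9 lay at -0.89 ± 0.09 in null cells (adjusted p = 8.28e-06). Between the lines without β-catenin Fzd3 fell by 1.63 ± 0.20, Fzd2 by 1.32 ± 0.20 and Fzd1 by 0.58 ± 0.09. The Dickkopf receptor Kremen1 lay at -0.50 ± 0.12 in null and -1.08 ± 0.12 in null Eα cells (adjusted p = 0.00496 and 3.14e-05), while Kremen2 rose by 0.39 ± 0.11 and 0.64 ± 0.11. Lrp6 fell by 0.38 ± 0.08 and 0.53 ± 0.08, and Lrp5 differed by -0.20 ± 0.11 in null cells (adjusted p = 0.131) and fell by 0.43 ± 0.11 in null Eα cells. The values of the receptors were not adjusted for shifts of whole chromosomes. Brighter genes of chromosomes 6 and 11 had median differences of -0.61 and -0.63 in null Eα against flox cells.

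Wnt genes encode the ligands that Sfrp and Wif1 proteins bind. Of 19 of them 11 rose and 1 fell in null cells (median 0.29). There 26.5% of all genes and 26.6% of genes under the median level rose, and 28.7% of all genes fell. In null Eα against flox cells 15 rose and 0 fell (median 0.50). There 32.1% of all genes and 45.3% of those under the median level rose, and 31.6% of all genes fell. In null Eα against null cells 2 rose and 1 fell (median 0.16), beside 13.6% and 18.1% of all genes. Wnt5a, a ligand of the branch that does not use β-catenin, gained 1.53 ± 0.14 in null cells (limma adjusted p = 6.34e-06), and Wnt3 and Wnt9a by 0.75 ± 0.10 and 0.79 ± 0.13. In null Eα cells Wnt5a rose by 0.98 ± 0.14, Wnt4 by 0.86 ± 0.13 and Wnt7b by 0.62 ± 0.11 over flox. Against null cells Wnt7b and Wnt8a rose by 0.45 ± 0.11 and 0.63 ± 0.21, and Wnt5a fell by 0.56 ± 0.14. Dim genes as a class moved up as well: genes under the median level had a median difference of 0.13 in null and 0.23 in null Eα against flox cells.

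Other extracellular modulators of Wnt signalling, 13 in number, gave 5 rises and 3 falls in null cells (median 0.16), 7 and 3 in null Eα against flox cells (median 0.38), and 1 and 1 in null Eα against null cells (median 0.15). Over all genes 26.5% rose and 28.7% fell in null, and 32.1% and 31.6% in null Eα against flox cells. In null Eα against null cells 13.6% rose and 18.1% fell. Notum, an enzyme that removes the lipid of Wnt ligands, fell by 2.48 ± 0.22 in null (limma adjusted p = 4.40e-06) and by 1.35 ± 0.22 in null Eα cells, and null Eα exceeded null by 1.14 ± 0.22 (adjusted p = 0.00315). Dkkl1, a Dickkopf-like protein, fell by 1.12 ± 0.10 and 1.27 ± 0.10, and Rspo2, an R-spondin that enhances Wnt signalling, had called differences of 0.81 ± 0.12 and 0.76 ± 0.12, but it lay under the floor on all flox and null Eα arrays and on 2 of 3 null arrays. Igfbp4 fell by 0.59 ± 0.14 in null Eα against null cells. Igfbp4 and Notum lie on chromosome 11, whose brighter genes had median differences from flox of -0.19 in null and -0.63 in null Eα cells.

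Target genes of β-catenin, 16 of them measured, gave 2 rises and 6 falls in null cells (median -0.08), 5 and 6 in null Eα against flox cells (median 0.10), and 4 and 1 in null Eα against null cells (median 0.15). The shares of all genes that rose and fell were 26.5% and 28.7% in null and 32.1% and 31.6% in null Eα against flox cells. In null Eα against null cells they were 13.6% and 18.1%. Axin2 fell by 1.32 ± 0.11 in null and by 1.33 ± 0.11 in null Eα cells, and Znrf3, which removes Frizzled receptors from the surface, fell by 1.58 ± 0.08 in null and fell by 1.43 ± 0.08 in null Eα cells (limma adjusted p = 9.50e-08 and 3.02e-07). Notum is on this list as well. The values of these target genes were not adjusted for shifts of whole chromosomes. On chromosome 11, where Notum lies, brighter genes had median differences from flox of -0.19 in null and -0.63 in null Eα cells. In null Eα against null cells Id2 rose by 1.05 ± 0.11 and Myc fell by 0.55 ± 0.16.

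Secreted antagonists of other pathways were compared as the class nearest in kind. Of 13 measured inhibitors of BMP, Nodal and hedgehog ligands 8 rose and 2 fell in null cells (median 0.49), 6 rose and 1 fell in null Eα against flox cells (median 0.46), and 1 rose and 1 fell in null Eα against null cells (median -0.02). Beside them, 26.5% of all genes rose and 28.7% fell in null, and 32.1% and 31.6% in null Eα against flox cells. Null Eα against null cells gave 13.6% and 18.1%. Grem1, a BMP antagonist, gained 3.77 ± 0.27 in null and 4.13 ± 0.27 in null Eα cells (limma adjusted p = 9.98e-07 and 7.39e-07), more than any Wnt antagonist. Fst, the activin antagonist follistatin, rose by 1.44 ± 0.21 and 1.71 ± 0.21, and Hhip, a hedgehog antagonist, lay at -1.96 ± 0.18 and -1.61 ± 0.18, with 1 of 3 null and 2 of 3 null Eα arrays above the floor. The Nodal inhibitors Lefty2 and Lefty1 lay at 1.65 ± 0.27 and -0.70 ± 0.15 in null Eα against null cells.

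**Figure D5:**
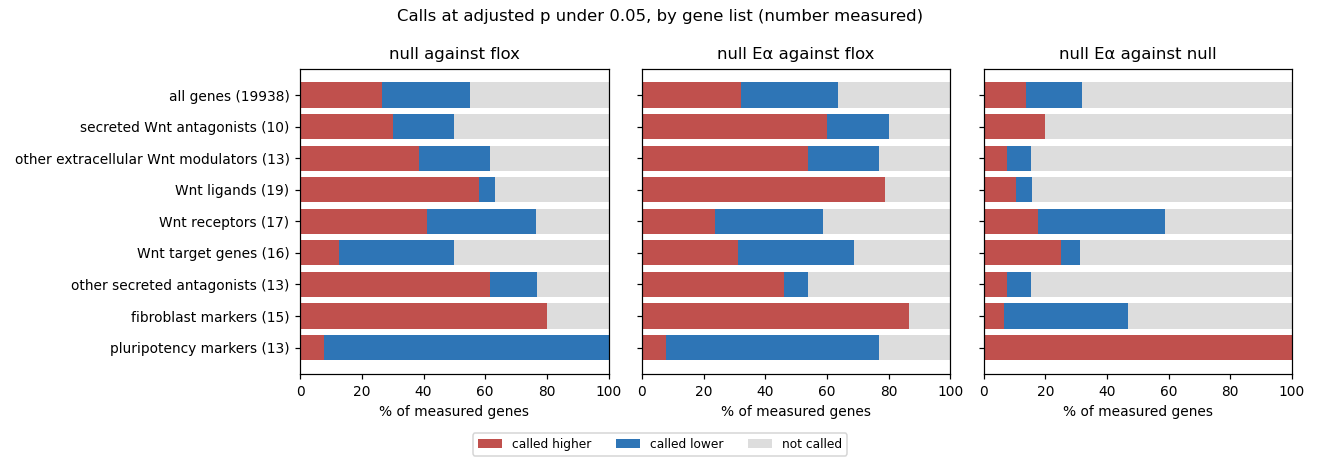
Share of measured genes called higher, called lower or not called (x axis, percent) in each gene list (y axis, number measured), with all 19938 genes on top, for the 3 comparisons. The 10 antagonists resemble all genes in null against flox cells, while 12 of 15 fibroblast markers were called higher and 12 of 13 pluripotency markers lower there.

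Markers of other cell types moved along with these differences. Of 15 fibroblast markers 12 rose and 0 fell in null cells, where 26.5% of all genes rose and 28.7% fell. In null Eα against flox cells 13 rose and 0 fell, beside 32.1% and 31.6% of all genes. In null Eα against null cells 1 rose and 6 fell (median -0.44), beside 13.6% and 18.1% of all genes. The summed linear signal of these markers was 729 to 817 on flox, 7824 to 10007 on null and 4073 to 5234 on null Eα arrays. Lox, under the floor in flox cells, rose at least 34.0-fold in null cells (5.41 ± 0.12 on the RMA values), Col1a2 rose by 4.82 ± 0.12, and the smallest called differences were those of Fap and Thy1 (0.60 ± 0.14 and 1.13 ± 0.13), with Meox1 and Fap at or under the floor on all arrays. Dkk2, Dkk3 and Frzb were higher than in flox cells in the same groups as this list, and were not called between null Eα and null cells. The part of this list in their rise was not tested.

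Of 13 pluripotency markers 1 rose and 12 fell in null, 1 rose and 9 fell in null Eα against flox, and 13 rose in null Eα against null cells, with summed signals of 23865 to 24243, 9233 to 10559 and 19196 to 20623 on flox, null and null Eα arrays. Over all genes 28.7% fell in null and 31.6% in null Eα against flox cells, and 13.6% rose in null Eα against null cells. Esrrb and Tfcp2l1 fell by 5.54 ± 0.16 and 4.45 ± 0.12 in null cells, where Esrrb exceeded the floor on 1 of 3 arrays, Pou5f1 by 0.65 ± 0.07, and Tdgf1 rose by 0.27 ± 0.10. All 13 exceeded the floor on every flox and null Eα array, and 11 of 13 did on every null array. Sfrp4 was highest in flox, lowest in null and between in null Eα cells, as the summed signal was. Sfrp1 was low in both lines without β-catenin, with a difference of 0.14 between them that was not called. The part of the cells' state in either difference was not tested.

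Extraembryonic endoderm markers, the class in which Dkk1 and Sfrp5 would be sought, gave 6 rises and 2 falls of 12 in null cells, and the same counts in null Eα against flox cells. Over all genes 26.5% rose and 28.7% fell in null, and 32.1% and 31.6% in null Eα against flox cells. The summed signal of the endoderm markers was 554 to 609, 790 to 841 and 659 to 701 on flox, null and null Eα arrays. Afp and Ttr were at or under the floor on all arrays, and Sox17 and Cubn on every null and null Eα array. The median difference was 0.19 in null cells, and only 1 marker, Dab2, was called at least 2-fold higher there. Its mean was 6.34 in flox and 8.26 in null cells, so this sum does not stand for the class. Dab2 and Foxa2 rose by 1.92 ± 0.20 and 0.42 ± 0.10 in null cells, and Gata4 lay at -0.27 ± 0.08, and Cubn, under the floor on all null arrays, was at least 1.20-fold lower there (-0.92 ± 0.13 on the RMA values). Primitive streak markers gave 4 rises and 2 falls of 9 in null and 5 and 1 in null Eα against flox cells, with summed signals of 691 to 750, 650 to 694 and 767 to 896. Eomes fell by 2.32 ± 0.10 and Tbx6 by 0.28 ± 0.11 in null cells, and Fgf8 and Foxf1 rose by 0.64 ± 0.16 and 0.61 ± 0.11.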

How the data were processed

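The deposited table held log2 values that the authors made with RMA, per the submitters' processing notes, with no version, for 35556 features on 9 arrays; the genome build is not given in the sources used here. Whether the arrays were normalized together is not stated, but 21.7% of features carried an identical value on arrays of different groups. Gene names came from the platform annotation: 21789 features had 1 symbol, 1621 had several and were left out, and 12146 were not listed. The feature with the highest mean stood for each of 19938 genes. Chromosomes and gene order came from RefSeq (GRCm38.p6), as did promoters. The test was limma 3.58.1, run in R 4.3.3 (a mean per group, 9 arrays, 6 residual and 4.04 prior degrees of freedom), and the code was tested on simulated data. For a single gene, an exact two-sided permutation test of 3 against 3 arrays cannot go below p = 0.1. Errors are standard errors, and precision is limited by the number of arrays. Where the dimmer group lay at or under the floor on all its arrays, a fold is given as a lower bound, with the floor in place of that group's values. The floor differed between groups, and only that of the dimmer group is used. So for Frzb in null and Sfrp4 in null Eα against null cells the fold is no bound.

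Members and lists were chosen with earlier results of these data known, so no list was tested. Named genes were all members, Ctnnb1, Axin2, Kremen1, Kremen2, Lrp5 and Lrp6, the up to 3 called genes with the smallest p per pathway list and comparison, the 2 highest and 2 lowest called markers of each cell type in null against flox, and the 3 nearest genes to each member that spanned 1 unit. Gins4 and Stard3nl were named after their values were seen, as were Meox1, Afp, Ttr and Sox17. Tcf7, T and Fbn1 were not analysed here. Figures used matplotlib 3.10.9 in Python 3.11.15.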

Additional observations from a re-analysis of the deposited data

How the results depend on the processing

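Counts of calls and the members' differences were recomputed under up to 18 alternatives, of which chromosomes centred relative to all was chosen after seeing the data. Values of the gene lists, markers, neighbours, likeness and other named genes were not recomputed. The calls of Sfrp1, Sfrp4, Frzb, Dkk2 and Dkk3 against flox kept direction and call in both lines wherever they were tested. With dim genes left out only Sfrp1, Sfrp2 and Dkk3 were tested, so members called were 1 higher and 1 lower in each comparison with flox and 0 in null Eα against null, and genes called fell to 7288 in null and 7169 in null Eα against flox, of 9969 tested. With each chromosome centred, which removes the fall of brighter genes (-0.16 in null and -0.30 in null Eα) and moves the median of all genes to 0.21 and 0.33, 6 members were called higher in null cells, and higher and lower calls over all genes became 8922 and 4674 in null against flox, 11202 and 4060 in null Eα against flox and 6040 and 2583 in null Eα against null. Median centring gave 4674 and 6987 in null Eα against flox, from 6399 and 6295. In null Eα against null cells 1 member was called higher after quantile normalization and with only the groups compared, 1 was called lower (Dkk3) with chromosomes centred relative to all, and leaving out 1 array gave 1 to 2 called higher.

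Signs turned only in differences that were not called. Leaving out 1 array at a time, Sfrp2 ranged from -0.19 to 0.072 in null against flox (above 0 without null replicate 3), from -0.095 to 0.16 in null Eα against flox (below 0 without flox replicate 1, null Eα replicate 1 or null Eα replicate 2) and from -0.057 to 0.24 in null Eα against null (below 0 without null replicate 3 or null Eα replicate 1). Likewise Sfrp5 ranged from -0.0011 to 0.094 in null Eα against flox (below 0 without null Eα replicate 3), and Frzb from -0.21 to 0.073 in null Eα against null (above 0 without null replicate 2). Quantile normalization turned Sfrp2 (0.095) and Dkk4 (-0.0043) in null and Sfrp5 (-0.12) in null Eα cells, and median centring turned Sfrp2 (-0.068) and Sfrp5 (-0.027) in null Eα cells. Sfrp5 in null cells was 0.19 with each chromosome centred and 0.030 with chromosomes centred relative to all, and Sfrp2 in null Eα cells was -0.17 with the latter. Sfrp5 was called in null Eα against flox with each chromosome centred (0.39), which moves dim genes by the median of brighter ones. The causes were not tested. The labels share replicate numbers across groups. Same-numbered arrays deviated together in 3 of 9 pairs (r from -0.03 to 0.26, threshold 0.1). Among the 3 arrays of another group, an array matched its own number best in 12 of 18 cases. The main fit did not use this pairing. With the replicate block 11298, 12935 and 6602 genes were called, against 11004, 12694 and 6330, and no member's call changed.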
